A study of Mus musculus with 16 samples.

Results

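Mitochondrial ribosomal protein genes are described here, taken as the protein-coding genes whose symbol starts with Mrpl or Mrps followed by a digit in GENCODE M21. The rule found 78 of the 35968 genes summed from the files, of which 49 carry an Mrpl and 29 an Mrps symbol. All 78 passed the filter on low counts, as did 18944 genes in all. Poly(A)-selected RNA was sequenced from mouse embryonic stem cells (ESCs), pluripotent cells of the early embryo, in 4 groups of 4 libraries. The groups were Dgcr8 knockout (KO) ESCs in culture with an mTOR inhibitor, KO ESCs in normal culture, wild-type (WT) ESCs with the mTOR inhibitor, and WT ESCs in normal culture, with 800000 cells per sample at day 2. Dgcr8 is the RNA-binding partner of Drosha in the first cut of microRNA precursors, and mTOR is a kinase that couples growth to nutrients. ESCs kept with an mTOR inhibitor enter a dormancy-like state and are called paused here. The labels name neither the inhibitor nor its dose, and they do not say whether the KO is 1 clone or whether replicates were separate cultures, so p-values reflect the spread among these libraries alone, which may be technical.

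The mitochondrial ribosome sits in the mitochondrial matrix, at the inner membrane, and translates the few mRNAs of the mitochondrial genome, all of which encode subunits of the respiratory chain and ATP synthase. Its ribosomal RNAs are mitochondrially encoded, while every protein comes from a nuclear gene and is imported. The large subunit holds the peptidyl transferase centre, the small subunit decodes the mRNA, and both combine descendants of bacterial ribosomal proteins with proteins found only in mitochondria. ESCs use glycolysis, and they also make and use respiratory chain complexes.

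Libraries held 88377380 to 116646028 estimated counts. All 10 pluripotency markers exceeded 1 TPM (a share of the library's transcripts, corrected for transcript length) in each group. Dgcr8 RNA summed over its transcripts was higher in KO than in WT ESCs, by 2.40 ± 0.04 (log2 fold change ± SE) in normal culture, with edgeR adjusted p = 5.4e-18. Because the deleted part of the gene is not stated, this sum does not check the genotype. The coding transcript Dgcr8-209 was listed at 0 TPM in all 8 KO libraries and at 0.397 to 0.695 TPM in the 8 WT libraries. This is 1 transcript at a low level in WT cells, and other Dgcr8 transcripts are not given. It thus does not check the genotype either. In WT normal culture, replicates 1 and 2 stood apart from replicates 3 and 4, since the chi-square of their counts, as a median over genes, was 9.28 to 13.0 across these pairs and 2.07 and 2.43 within them. No libraries were identical.

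Promoters of 5 members are shown because these genes mark the ends of the response described below. Mrpl36, Mrpl12, Mrpl34 and Mrps12 had some of the largest falls in paused cells, and Mrps2 was the member that was higher in paused cells of both genotypes. The sequences are from RefSeq on GRCm38.p6, run 5′ to 3′ on the strand of the gene and span 200 bases. Capitals mark matches to CACGTG (an E-box), AAGATGG (a YY1 motif) or CCGGAAG (an ETS motif, as bound by GABPA) on either strand.
Mrpl36, chr13:73330859-73331058, plus strand: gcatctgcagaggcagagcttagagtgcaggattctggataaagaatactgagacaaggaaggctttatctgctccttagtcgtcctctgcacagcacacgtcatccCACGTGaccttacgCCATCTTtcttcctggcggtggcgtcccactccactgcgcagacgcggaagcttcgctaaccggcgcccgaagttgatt
Mrpl12, chr11:120484487-120484686, plus strand: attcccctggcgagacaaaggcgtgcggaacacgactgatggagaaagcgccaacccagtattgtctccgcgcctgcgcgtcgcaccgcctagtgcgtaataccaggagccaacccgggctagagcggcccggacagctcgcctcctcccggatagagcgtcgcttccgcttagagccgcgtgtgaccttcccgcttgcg
Mrpl34, chr8:71464776-71464975, plus strand: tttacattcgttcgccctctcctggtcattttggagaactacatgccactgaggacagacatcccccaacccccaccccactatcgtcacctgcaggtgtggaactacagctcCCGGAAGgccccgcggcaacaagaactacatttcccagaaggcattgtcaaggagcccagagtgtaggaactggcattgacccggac
Mrps12, chr7:28741772-28741971, minus strand: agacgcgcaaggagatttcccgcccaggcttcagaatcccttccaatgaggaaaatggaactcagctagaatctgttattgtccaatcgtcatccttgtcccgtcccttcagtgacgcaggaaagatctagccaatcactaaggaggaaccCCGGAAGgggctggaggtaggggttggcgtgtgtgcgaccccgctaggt
Mrps2, chr2:28467916-28468115, plus strand: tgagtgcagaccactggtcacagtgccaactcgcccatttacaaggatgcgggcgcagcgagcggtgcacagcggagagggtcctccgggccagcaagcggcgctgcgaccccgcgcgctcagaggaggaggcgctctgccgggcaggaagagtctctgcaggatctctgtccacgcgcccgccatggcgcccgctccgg
The E-box of Mrpl36 begins 43 bases before the transcript start and its YY1 motif, read on the opposite strand, 29 bases before it. The ETS motif of Mrpl34 begins 37 bases before the start.

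Across members, RefSeq windows of 300 bases, 250 before and 50 after the start, were found for 69 of the 78. The ETS motif CCGGAAG was in 26 of 69 members (37.7%), against 16.5% of 12962 tested protein-coding genes with a window. The YY1 motif AAGATGG was in 13 members (18.8%), against 7.7% of all. The motif GCATGCG of NRF1, a regulator of nuclear genes for mitochondria, was in 8 members (11.6%), against 6.3% of all. At least 1 of these 3 motifs was in 38 members (55.1%), against 27.2% of all. The E-box CACGTG was in 5 members (7.2%) and 10.7% of all, and the cAMP response element TGACGTC in 4 members (5.8%) and 5.3% of all. All motifs were searched on both strands, and none of these motifs contains another. Medians of the response to pausing are given for each motif, with no test. In KO cells the median log2 fold change was -0.57 in the 26 members with the ETS motif and -0.50 in the 43 without it. In WT cells it was -0.50 with and -0.50 without the ETS motif. With the E-box it was -0.68 in KO and -0.72 in WT cells over 5 members, against -0.50 and -0.49 over the 64 without it. These 5 include Mrpl2, which rose in WT cells. With the YY1 motif the median was -0.54 in KO and -0.50 in WT cells, against -0.50 and -0.47 without it. With the NRF1 motif it was -0.50 and -0.49, against -0.50 and -0.50. With the cAMP response element it was -0.54 and -0.46, against -0.50 and -0.50.

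The first comparison asks how mitoribosomal mRNAs differ between paused and normal culture. In paused cells nearly all members were lower, in both genotypes and in both subunits. Of 78 members, 72 fell and 2 rose in KO cells, and 73 fell and 2 rose in WT cells, by the edgeR quasi-likelihood test at an adjusted p of 0.05. Among all genes tested, 32.8% fell and 34.4% rose in KO cells, and 27.5% fell and 33.3% rose in WT cells. The median log2 fold change over the members was -0.50 in KO and -0.49 in WT cells, against 0.02 and 0.04 over all genes tested. In each genotype 71 members had all 4 paused libraries below all 4 normal ones, against 31.3% of all genes in KO and 24.2% in WT cells. The spread was moderate, since only 5 members in KO and 3 in WT cells moved by more than 1 on the log2 scale. In bulk RNA, fewer cells of a type and less RNA per cell cannot be told apart.

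Some lists of cell type markers moved with pausing too, in summed TPM. The trophoblast list of 6 genes had 59.2 to 65.8 in KO paused and 29.5 to 30.4 in KO normal libraries, and 31.7 to 43.0 in WT paused and 40.2 to 48.3 in WT normal libraries. The primitive endoderm list of 6 genes had 8.09 to 10.6 in KO paused and 3.92 to 5.71 in KO normal libraries, and 14.5 to 22.1 in WT paused and 12.5 to 19.5 in WT normal libraries. The mesoderm list of 5 genes had 3.87 to 4.83 in KO paused and 3.87 to 4.62 in KO normal libraries, and 4.11 to 4.75 in WT paused and 2.61 to 3.5 in WT normal libraries. The 10 pluripotency markers summed to 7664 to 8432 in KO paused and 7604 to 8069 in KO normal libraries, and to 9326 to 9685 in WT paused and 6891 to 7923 in WT normal libraries. Thus the trophoblast and primitive endoderm sums did not overlap between cultures in KO cells, and the mesoderm and pluripotency sums did not in WT cells. Their part in the fall of the members was not tested.

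Direction depended on the member in only a few cases. A fall in both genotypes was called for 68 members (87.2%), against 20.2% of all genes tested, and a rise in both for 1 member, against 21.9% of all genes. Calls in opposite directions were made for 2 members, Mrpl2 and Mrpl24. In KO cells, Mrpl23, Mrpl39, Mrpl52 and Mrpl57 did not pass the test, and in WT cells Mrps34, Mrpl41 and Mrpl43 did not. Over the 78 members the log2 fold changes in KO and WT cells had a Pearson r of 0.71 and a Spearman rho of 0.68, given as a description across genes, which are not independent replicates.

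**Figure D1:**
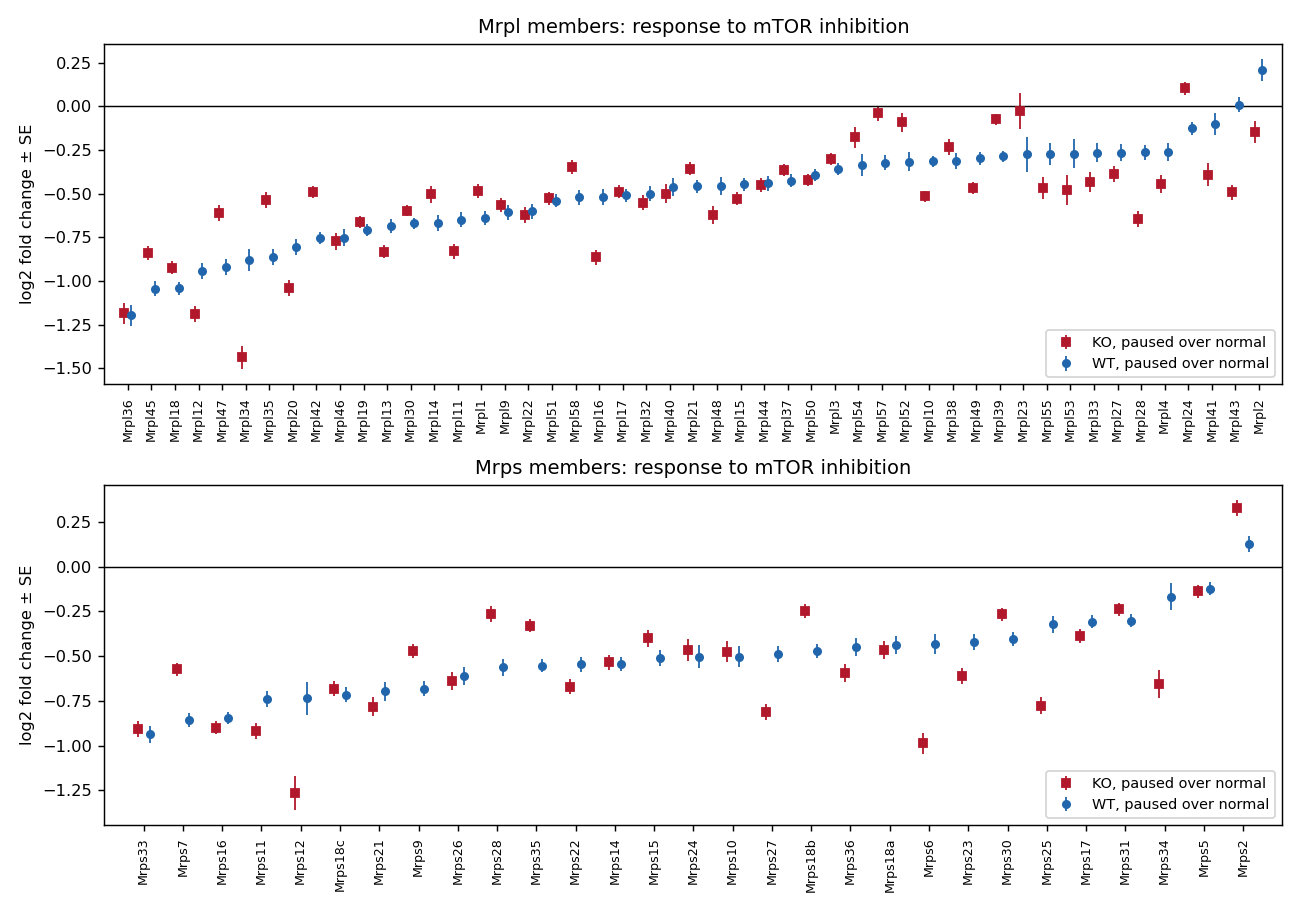
Log2 fold change of paused over normal culture (y axis, error bars are SE from edgeR) for the 49 Mrpl members (top) and the 29 Mrps members (bottom), sorted by the WT value, with KO as squares and WT as circles. Most points lie below 0, with Mrps2 above 0 in both genotypes, and Mrpl34 and Mrps12 are further below 0 in KO than in WT cells.

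Members of both subunits were lower in paused cells. Of the 49 Mrpl genes, 44 fell in KO cells, with a median of -0.49, and 46 fell in WT cells, with a median of -0.46. Of the 29 Mrps genes, 28 fell in KO cells, with a median of -0.57, and 27 fell in WT cells, with a median of -0.50. Summed TPM of the Mrpl genes was 3865 ± 75 in KO paused and 4899 ± 215 in KO normal libraries, and 3994 ± 89.9 in WT paused and 4857 ± 197 in WT normal libraries (SD, n = 4 each). For the Mrps genes it was 2011 ± 29.6 in KO paused and 2485 ± 109 in KO normal libraries, and 2033 ± 33.8 in WT paused and 2431 ± 107 in WT normal libraries. Paused and normal libraries did not overlap in either sum. Together the members made up 0.576% to 0.601% of all TPM in KO paused and 0.708% to 0.778% in KO normal libraries, and 0.594% to 0.620% in WT paused and 0.704% to 0.766% in WT normal libraries. The ratio of Mrpl to Mrps TPM stayed between 1.91 and 2.02 over the 16 libraries.

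**Figure D2:**
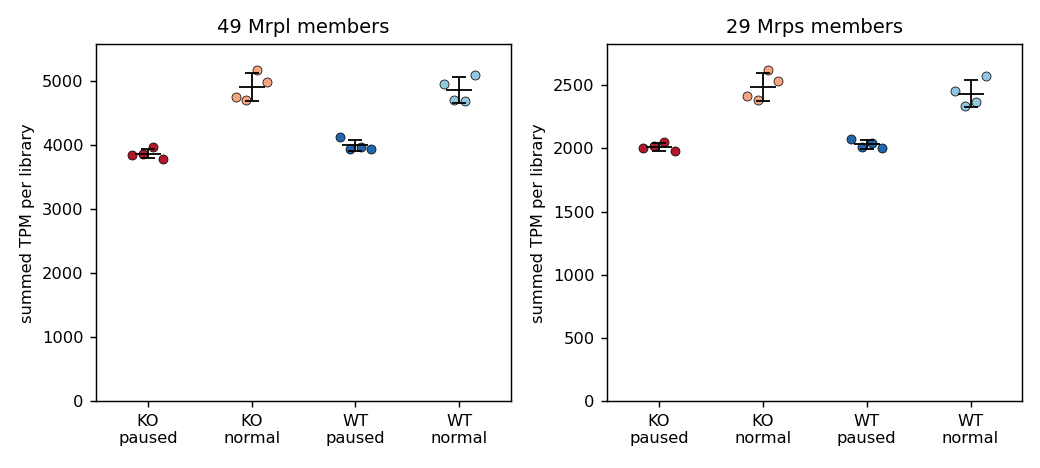
Summed TPM per library (y axis, from 0) of the 49 Mrpl members (left) and the 29 Mrps members (right) in the 4 groups, with points for libraries and bars for mean ± SD. The paused libraries lie below the normal ones of the same genotype, and KO and WT libraries of the same culture lie close to each other.

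TPM is a share, and its scale differs from that of the tests. The median log2 TPM ratio of all genes was 0.23 in KO and 0.29 in WT cells, paused over normal, and over the members it was -0.35 and -0.28. On this scale 69 members were below 0 in KO and 70 in WT cells, and 76 in each were below the median of all genes. Of the members called in the test, 4 in KO cells and 3 in WT cells had a TPM ratio of the opposite sign, each called lower with a higher mean TPM in paused libraries. They were Mrps5, Mrpl54, Mrpl38 and Mrpl2 in KO cells, and Mrps5, Mrpl24 and Mrpl28 in WT cells. Mrps5, at the mRNA entry side of the small subunit, fell by 0.12 ± 0.04 (log2) in WT cells in the test, with adjusted p = 0.0083 (0.22 with replicates 1 and 2 alone), while its TPM was 223 ± 3.9 in paused and 213 ± 9.0 in normal WT libraries. Unless a TPM ratio is named, log2 fold changes below are on the scale of the test, CPM. These are counts relative to the library total after TMM scaling of the libraries.

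In TPM the members spanned a range from 17.9 to 266 (means over 16 libraries) with a median of 66.2. The highest were Mrpl17, at the exit of the peptide tunnel, Mrpl15 and Mrps5, and the lowest were Mrpl48 and Mrpl23. These sums include transcripts annotated as non-coding, which held most of the TPM of 15 of the 78 members. Coding transcripts carried 29.6% of the TPM of Mrpl15 and 27.3% of that of Mrps5, or 78 and 64.4 TPM, while in coding TPM Mrpl17 (239), Mrpl42 (226) and Mrps18b (167) were highest. Mrpl17 had 187 ± 13 TPM in KO paused and 274 ± 19 in KO normal libraries, and 262 ± 7.1 in WT paused and 343 ± 15 in WT normal libraries. Mrpl48, of the central protuberance, had 14.3 ± 1.7 TPM in KO paused and 19.9 ± 0.47 in KO normal libraries, and 16.8 ± 0.66 in WT paused and 20.6 ± 1.5 in WT normal libraries. It shares 409 bases with its neighbour Rab6a. Its pseudogene Mrpl48-ps matches it at 99.5% identity over 636 aligned bases and held 15.8% as many counts.

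Mrpl36, the homologue of the small bacterial protein L36 of the large subunit, had the largest fall in WT cells. Its CPM were 16.5, 15, 16.2 and 14.3 in KO paused libraries, against 36.2, 32.2, 35.9 and 36.7 in KO normal libraries. In WT cells they were 26.2, 22.7, 22.8 and 23.5 in paused libraries, against 52.2, 52.5, 55.2 and 58.7 in normal libraries. Paused and normal libraries did not overlap in either genotype. The log2 fold change was -1.19 ± 0.06 in KO cells (adjusted p = 7.8e-12) and -1.20 ± 0.06 in WT cells (adjusted p = 7.7e-12).

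The stalk of the large subunit recruits translation factors, and all 5 of its genes fell in both genotypes. Mrpl12, which forms the flexible part of the stalk, had CPM of 56.5, 53.0, 61.6 and 53.5 in KO paused libraries, against 128, 122, 131 and 132 in KO normal libraries. In WT cells its CPM were 80.4, 75.5, 81.1 and 78.7 in paused libraries, against 144, 149, 155 and 158 in normal libraries. No library of 1 culture reached the other, and the fall was larger in KO cells. Mrpl12 fell by 1.19 ± 0.05 in KO and by 0.94 ± 0.05 in WT cells, and the difference between genotypes was -0.25 ± 0.06 (adjusted p = 0.0046). Mrpl11, at the base of the stalk, fell by 0.83 ± 0.04 in KO and by 0.65 ± 0.04 in WT cells. Its partner Mrpl10 fell by 0.52 ± 0.03 in KO and by 0.31 ± 0.03 in WT cells. The difference between genotypes passed for both, with adjusted p = 0.024 for Mrpl11 and 0.002 for Mrpl10, and that of Mrpl11 was lost on leaving out any one of 6 libraries (adjusted p up to 0.12). The mitochondria-specific Mrpl53 fell by 0.48 ± 0.09 in KO and 0.27 ± 0.08 in WT cells, and Mrpl54 fell by 0.34 ± 0.06 in WT cells. In KO cells Mrpl54 fell by 0.18 ± 0.06, with adjusted p = 0.017, a call that was lost without KO normal replicate 4 (adjusted p = 0.056), KO paused replicate 1 (0.061) or KO paused replicate 2 (0.067).

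The central protuberance, the crest of the large subunit where it meets the head of the small one, is formed by 8 members in the list used, and all 8 fell in both genotypes. Mrpl18, whose bacterial relative binds a structural RNA there, had CPM of 66.1, 61.5, 61.6 and 61.1 in WT paused libraries, against 127, 128, 129 and 131 in WT normal libraries. It fell by 0.92 ± 0.04 in KO cells (adjusted p = 2.9e-13) and by 1.04 ± 0.04 in WT cells (adjusted p = 1.5e-13). Mrpl46 fell by 0.77 ± 0.05 in KO and 0.75 ± 0.05 in WT cells. Mrpl58, which also acts as a peptidyl-tRNA hydrolase that rescues stalled ribosomes, fell by 0.35 ± 0.04 in KO and 0.52 ± 0.04 in WT cells. Falls of the remaining 5 in WT cells lay between those of Mrpl27 (0.26 ± 0.05) and Mrpl40 (0.46 ± 0.05).

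At the exit of the peptide tunnel, where the ribosome docks to the inner membrane, 4 of 6 members fell and 1 rose in KO cells, and 6 fell in WT cells. Mrpl45, which binds the membrane, had CPM of 71.0, 66.8, 76.0 and 73.0 in WT paused libraries, against 149.6, 150.2, 143 and 149 in WT normal libraries. It fell by 0.84 ± 0.04 in KO and by 1.04 ± 0.04 in WT cells, a difference of 0.20 ± 0.06 between genotypes (adjusted p = 0.0091). Mrpl47 fell by 0.61 ± 0.05 in KO and by 0.92 ± 0.05 in WT cells. Mrpl24 had CPM of 81.6, 76.1, 83 and 78.2 in KO paused libraries, against 78.5, 72.6, 71.4 and 74.2 in KO normal libraries, and these overlap. Its rise of 0.10 ± 0.04 in KO cells (adjusted p = 0.022) was lost without KO normal replicate 2 (adjusted p = 0.055) or 3 (0.069), without KO paused replicate 1 (0.053) or 3 (0.066), when only the KO libraries were fitted (0.057), with no count filter (0.1) and with replicates 1 and 2 alone (0.34). In WT cells Mrpl24 fell by 0.12 ± 0.04 (adjusted p = 0.0076), a call lost with replicates 1 and 2 alone (0.18). Mrpl22, a homologue of bacterial L22, fell by 0.62 ± 0.04 in KO and by 0.60 ± 0.04 in WT cells. Mrpl24 shares 464 bases of exon sequence with Rrnad1 and Mrpl47 shares 453 with Actl6a.

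Values of Mrpl23, another tunnel exit protein, are uncertain. A processed pseudogene, Mrpl23-ps1, matches it at 100% identity over 540 aligned bases and was assigned 286% of the counts of Mrpl23 itself. Mrpl23 had a log2 fold change of -0.03 ± 0.10 in KO cells (adjusted p = 0.85) and of -0.27 ± 0.10 in WT cells (adjusted p = 0.024), a call lost without WT normal replicate 4 (0.098) or WT paused replicate 2 (0.076), and with replicates 1 and 2 alone (0.35). With length-scaled TPM counts it fell in KO cells, by 0.42 (adjusted p = 0.0079). With the counts of the pseudogene added it rose in both, by 0.44 in KO (adjusted p = 4.4e-07) and by 0.20 in WT cells (adjusted p = 0.0024). Its direction thus depended on how the counts were formed.

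Among other large subunit proteins of bacterial descent, Mrpl34, the homologue of bacterial L34, had the largest fall in KO cells. Its CPM were 20.4, 17.5, 20.2 and 17.9 in KO paused libraries, against 55.2, 48.8, 51.0 and 50.6 in KO normal libraries. In WT cells they were 34.4, 32.7, 34.6 and 31.9 in paused libraries, against 54.3, 59.8, 64.7 and 66.8 in normal libraries. It fell by 1.44 ± 0.07 in KO and by 0.88 ± 0.06 in WT cells, and the difference was -0.56 ± 0.09 (adjusted p = 9.2e-05). Mrpl2, whose bacterial relative lies at the peptidyl transferase centre, went the other way in WT cells. It had CPM of 99.3, 90.5, 99.9 and 94.9 in WT paused libraries, against 74.2, 75.6, 89.9 and 93.3 in WT normal libraries. The ranges overlap, and normal replicates 1 and 2 are the low ones. The rise of 0.21 ± 0.06 (adjusted p = 0.0069) was lost without WT normal replicate 2 (adjusted p = 0.060), with the WT libraries fitted alone (0.082) or with replicates 3 and 4 alone (0.16). In KO cells Mrpl2 fell by 0.15 ± 0.06 (adjusted p = 0.043), with KO paused CPM of 86.3 to 95.9 and KO normal CPM of 98.5 to 103, and leaving out any one of 7 of the 8 KO libraries lost this call, with adjusted p-values up to 0.12.

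Counts by descent were close. Of 30 large subunit genes with a bacterial homologue, 28 fell in KO and 29 in WT cells, and of 21 mitochondria-specific ones, 18 fell in KO and 19 in WT cells. Of 16 small subunit genes with a bacterial homologue, 15 fell in each genotype, and of 10 mitochondria-specific ones, 10 fell in KO and 9 in WT cells. Mrps30 and Mrps18a, which carry small subunit symbols but lie in the large subunit, fell in both genotypes. Mrps36, since recognised as a component of the α-ketoglutarate dehydrogenase complex, fell by 0.59 ± 0.05 in KO and 0.45 ± 0.05 in WT cells.

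In the small subunit, Mrps12, the homologue of the decoding-centre protein S12, had the largest fall in KO cells. Its CPM were 23.7, 23.1, 25.4 and 22.1 in KO paused libraries, against 58.2, 54.5, 55.4 and 58.5 in KO normal libraries. In WT cells they were 37.9, 33.1, 38.0 and 35.6 in paused libraries, against 49.7, 52.5, 67.0 and 71.6 in normal libraries. The normal WT libraries divide into replicates 1 and 2, which are lower, and replicates 3 and 4, and all 4 exceed the paused ones. Mrps12 fell by 1.26 ± 0.09 in KO and by 0.74 ± 0.09 in WT cells, and the difference was -0.53 ± 0.13 (adjusted p = 0.0041). Mrps33, Mrps16 and Mrps11 fell by 0.90 to 0.92 in KO cells and by 0.74 to 0.94 in WT cells. Mrps7, a protein of the head of the subunit, fell less in KO cells, by 0.57 ± 0.04, than in WT cells, by 0.86 ± 0.04, with adjusted p = 0.00044 for the difference.

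Mrps2, a homologue of bacterial S2, was the exception. It had CPM of 139.8, 149, 145 and 152 in KO paused libraries, against 110.2, 114, 123 and 119.5 in KO normal libraries, and these do not overlap. In WT cells it had 113, 112, 116 and 119 in paused libraries, against 98.6, 102, 108 and 112 in normal libraries. Mrps2 rose by 0.33 ± 0.04 in KO cells (adjusted p = 2.4e-06) and by 0.13 ± 0.04 in WT cells (adjusted p = 0.017). The rise in WT cells is small and was lost with relative log expression scaling (adjusted p = 0.066), with DESeq2 (0.073), with replicates 3 and 4 alone (0.076), with the WT libraries fitted alone (0.13), and without WT normal replicate 1 (0.065) or 2 (0.13) or WT paused replicate 4 (0.053).

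**Figure D3:**
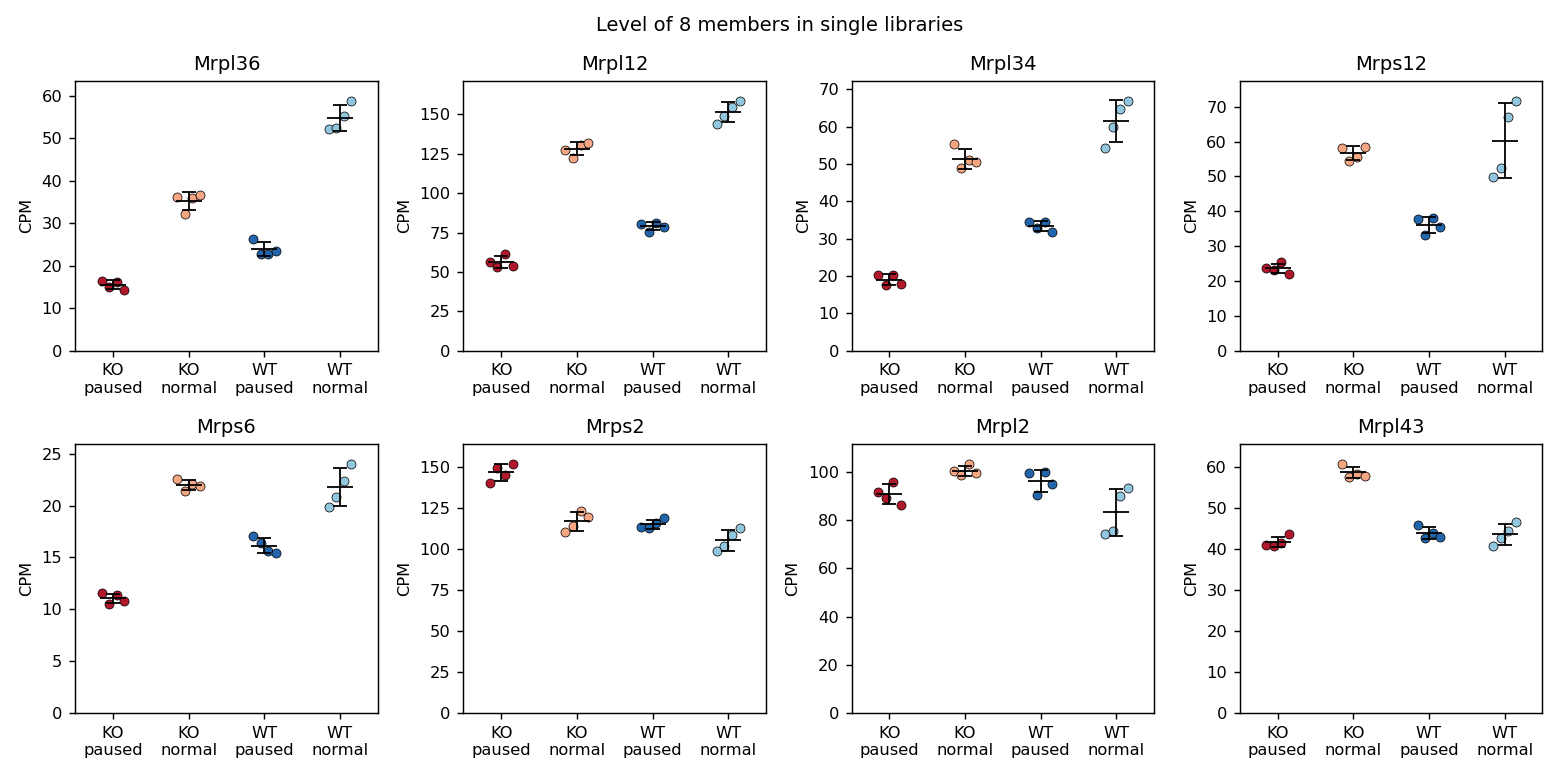
CPM (y axis, from 0) of Mrpl36, Mrpl12, Mrpl34, Mrps12, Mrps6, Mrps2, Mrpl2 and Mrpl43 in the 16 libraries, with points for libraries and bars for mean ± SD of 4. Mrpl36 and Mrpl12 are lower in paused libraries of both genotypes, Mrps2 is higher in KO paused libraries, and Mrpl43 is lower in paused libraries of KO but not of WT cells.

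The second question is whether the response to pausing differs between genotypes. The difference passed the test for 36 members, 19 with a more negative response in KO cells (24.4%) and 17 with a less negative or more positive one (21.8%). Among all genes 24.5% and 17.4% passed in these directions, so these shares are near the background, and the median difference over members was -0.01. The more negative ones were led by Mrpl34, Mrps6 and Mrps12, and the opposite ones by Mrpl35 (0.33 ± 0.06), Mrpl47 (0.31 ± 0.06) and Mrps28 (0.30 ± 0.07).

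Mrps6, a homologue of bacterial S6, had CPM of 11.5, 10.6, 11.4 and 10.9 in KO paused libraries, against 22.5, 21.4, 22.1 and 21.8 in KO normal libraries. In WT cells it had 17.1, 16.4, 15.7 and 15.5 in paused libraries, against 19.9, 20.8, 22.3 and 24.0 in normal libraries. Normal levels were alike in KO and WT cells, and the paused level was lower in KO cells. Mrps6 fell by 0.99 ± 0.06 in KO and by 0.43 ± 0.06 in WT cells, a difference of -0.56 ± 0.08 (adjusted p = 2.6e-05). It shares 159 bases of exon sequence with Slc5a3, whose counts were 25.9% of those of Mrps6. It also shares 306 bases with the gene model Gm49711, which held 0.471% as many counts.

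Mrpl43, a mitochondria-specific protein, had CPM of 41.0, 40.7, 41.3 and 43.5 in KO paused libraries, against 60.7, 57.5, 58.2 and 57.8 in KO normal libraries. In WT cells it had 45.8, 42.7, 43.8 and 42.8 in paused libraries, against 40.6, 42.6, 44.3 and 46.4 in normal libraries. Only the KO normal libraries stand apart. Mrpl43 fell by 0.49 ± 0.04 in KO cells, its log2 fold change in WT cells was 0.01 ± 0.04 (adjusted p = 0.85), and the difference was -0.50 ± 0.06 (adjusted p = 3e-06). It shares 278 bases of exon sequence with its neighbour Twnk, the mitochondrial helicase gene.

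Mrps34, a mitochondria-specific protein needed for stability of the small subunit, had CPM of 32.2, 28.9, 31.7 and 28.7 in KO paused libraries, against 46.8, 44.8, 50 and 50 in KO normal libraries. In WT cells it had 47.8, 44.2, 51.3 and 46.9 in paused libraries, against 45.5, 49.2, 58.6 and 60.2 in normal libraries. The KO groups do not overlap and the WT groups do. Mrps34 fell by 0.66 ± 0.08 in KO cells, against a log2 fold change of -0.17 ± 0.08 in WT cells (adjusted p = 0.07), and the difference was -0.49 ± 0.11 (adjusted p = 0.0016). In WT cells the fall passed with DESeq2 (adjusted p = 0.032), with relative log expression scaling (0.038), without WT normal replicate 1 (0.0058) or 2 (0.026), without WT paused replicate 3 (0.042), and with replicates 3 and 4 alone, where it was -0.28 (0.00024). Mrps34 shares 504 bases of exon sequence with Mapk8ip3.

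The third comparison sets KO against WT cells. Members differed between genotypes in both directions. In normal culture 42 members were lower in KO cells (53.8%) and 16 higher (20.5%), against 34.1% lower and 34.1% higher among all genes tested. In paused culture 44 were lower (56.4%) and 12 higher (15.4%), against 34.5% lower and 30.8% higher among all genes. The median was -0.14 in normal and -0.16 in paused culture, against -0.03 and -0.03 over all genes. In TPM the lean was weaker. The median log2 TPM ratio of the members was -0.04 in normal culture, against 0.07 over all genes, with 45 members below 0 and 33 above. In paused culture it was -0.10 against 0.02, with 55 below and 23 above. Summed TPM was not lower in KO normal than in WT normal libraries, with means of 4899 and 4857 for Mrpl and 2485 and 2431 for Mrps genes. In both cultures 34 members were lower (43.6%) and 11 higher (14.1%) in KO cells, against 23.0% and 22.6% of all genes. Summed TPM of the fibroblast (feeder) marker list, of 8 genes, moved with genotype. It was 24.3 to 26.3 in KO paused and 12.3 to 13.3 in WT paused libraries, and 30.3 to 33.1 in KO normal and 10.3 to 13.8 in WT normal libraries. None of the 8 was listed at 0 in every library, but Col3a1, Postn, Lum and Dcn were near 0 in all groups. Col1a2 was also that low in both KO groups, though not in the WT groups, against the direction of the sum. Only 2 of the 8 reached a mean of 1 TPM in each KO group, and 1 in each WT group. The part of this list in the differences was not tested. The same holds for other lists, whose values are given above. Primitive endoderm sums were lower in KO than in WT cells in both cultures without overlap, trophoblast sums were higher in KO cells in paused and lower in normal culture, pluripotency sums were lower in KO cells in paused culture, and mesoderm sums were higher in KO cells in normal culture.

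The largest differences lay in regions where neighbouring genes differed in the same direction. Mrpl19, Mrps25 and Mrpl53 were lowest in KO cells relative to WT, and all 3 lie on chromosome 6. Mrpl19, the homologue of bacterial L19 at the face between the subunits (chr6:81957851-81965958), had CPM of 26.5, 26.7, 26.7 and 26.5 in KO normal libraries, against 64.9, 65.1, 64.4 and 65.5 in WT normal libraries. In paused culture it had 16.7, 17.1, 16.8 and 16.6 in KO libraries, against 39.6, 37.9, 42.3 and 39.4 in WT libraries. The genotypes do not overlap in either culture, with log2 fold changes of -1.29 ± 0.04 (adjusted p = 3e-15) in normal and -1.24 ± 0.04 (adjusted p = 7.9e-15) in paused culture. The 7 other protein-coding genes tested within 1 Mb of its start had a median of -0.70 in normal and -0.53 in paused culture, and none of them was higher in KO cells.

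Mrps25, a mitochondria-specific protein of the small subunit (chr6:92169525-92184033), had CPM of 33.7, 30.5, 29.6 and 31.5 in KO normal libraries, against 56.5, 58.5, 59.6 and 58.3 in WT normal libraries. In paused culture it had 19.8, 17.8, 18.0 and 17.6 in KO libraries, against 49.3, 44.9, 46.0 and 46.2 in WT libraries. The log2 fold change was -0.89 ± 0.05 in normal and -1.35 ± 0.05 in paused culture, and 17 genes within 1 Mb had medians of -0.80 and -0.97. Mrpl53 was lower by 1.04 ± 0.09 in normal and by 1.25 ± 0.09 in paused culture, beside medians of -0.84 and -0.72 over 37 genes within 1 Mb. It shares 695 bases with the gene model Gm42688, which held 15.4% as many counts. Over chromosome 6 as a whole the median of 808 genes was -0.13 in normal culture.

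Shared sequence limits the values of both Mrpl19 and Mrps25. Mrpl19 shares 1967 bases with its neighbour Gcfc2, and Mrps25 shares 3533 bases with Nr2c2, whose own counts were 65.7% of those of Mrps25. Most of the TPM assigned to these members came from transcripts annotated as non-coding. The coding transcripts carried 22.3% of the TPM of Mrps25 in KO paused and 16.4% in KO normal libraries, and 21.6% in WT paused and 16.1% in WT normal libraries. In TPM its coding transcript stood at 3.91 ± 0.25 in KO paused and 5.38 ± 0.14 in KO normal libraries, and at 9.52 ± 0.25 in WT paused and 9.20 ± 0.33 in WT normal libraries. The genotype difference is thus seen in the coding transcript too, while in WT cells its TPM did not show the fall of the gene sum in paused culture.

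Members higher in KO cells were led by genes of chromosomes 14 and 1. Mrpl52, a mitochondria-specific large subunit protein (chr14:54426909-54429756), had CPM of 38.3, 37.4, 36.5 and 39.2 in KO normal libraries, against 19.9, 20.7, 21.3 and 21.1 in WT normal libraries. In paused culture it had 31.6, 36.2, 37.9 and 36.5 in KO libraries, against 17.9, 15.8, 16.7 and 16.4 in WT libraries. It was higher by 0.87 ± 0.05 in normal and 1.09 ± 0.05 in paused culture, while 35 genes within 1 Mb had medians of 0.78 and 0.80. Mrpl57, at chr14:57826234-57829296, was higher by 0.55 ± 0.04 and 0.83 ± 0.04, with medians of 0.91 and 0.73 over 15 genes around it. Mrps16, the third member on chromosome 14 (chr14:20389304-20393634), was lower in KO cells, by 0.22 ± 0.04 in normal culture, and 28 genes around it had a median of 0.07.

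All 5 members on chromosome 1 were higher in KO cells in both cultures. These are Mrpl15, Mrpl30, Mrpl44, Mrps9 and Mrps14, with log2 fold changes in normal culture between 0.27 ± 0.04 for Mrps14 and 0.65 ± 0.03 for Mrpl30. For Mrps14, coding transcripts carried only 19.4% of the TPM in KO normal and 13.8% in WT normal libraries. Its coding TPM were 22.0 ± 1.9 in KO normal and 11.9 ± 0.82 in WT normal libraries, a wider difference than in the gene sum. The 965 genes tested on chromosome 1 had a median of 0.50 in normal and 0.50 in paused culture, and 65.1% and 65.9% of them were higher in KO cells. Mrpl44 was higher by 0.33 ± 0.04 in normal culture. Of the 6 genes within 1 Mb of it 3 were higher in KO cells, with a median of -0.22, and its neighbour Wdfy1 was higher by 0.62 ± 0.05. Off chromosomes 1 and 14, the count of members higher in KO cells was 9 in normal and 5 in paused culture, out of 16 and 12 over all 78 members. The share of all genes off these chromosomes was not computed, so these counts have no background beside them. A difference of the member itself and a difference of its whole region cannot be told apart here.

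**Figure D4:**
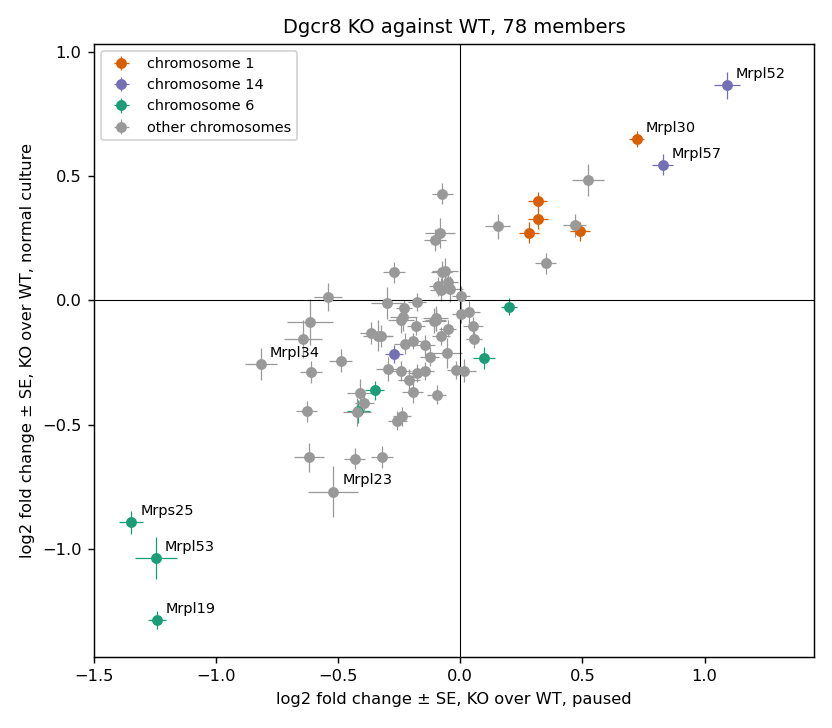
Log2 fold change of KO over WT in paused (x axis) and normal culture (y axis) for the 78 members, with SE bars from edgeR and colours for chromosomes 1, 14 and 6. Mrpl52, Mrpl57 and Mrpl30 lie at the upper right, and Mrpl19, Mrps25 and Mrpl53 of chromosome 6 at the lower left. The plotted comparisons share no libraries.

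Off these regions, Mrps24 was higher in KO cells by 0.49 ± 0.06 in normal and 0.52 ± 0.06 in paused culture. It overlaps Urgcp on the same strand, and coding transcripts carried 49.6% of its TPM. Mrpl34 was lower in KO cells by 0.26 in normal and 0.82 in paused culture, beside medians of 0.007 and 0.005 over 72 genes within 1 Mb. In paused culture Mrps34, Mrpl11, Mrps12 and Mrps27 were lower by 0.612 to 0.645. Mrpl36 was lower by 0.63 ± 0.06 and 0.62 ± 0.06, and Mrpl45 by 0.64 ± 0.04 and 0.43 ± 0.04. Of the 6 tunnel exit members, 5 were lower in KO cells in each culture, and of the 5 stalk members, 4 were, against 34.1% of all genes in normal and 34.5% in paused culture. The stalk count is not free of these regions, since it includes Mrpl53 of chromosome 6. Mrpl23 was lower by 0.77 ± 0.10 in normal and 0.52 ± 0.10 in paused culture, and the paused value became -0.03 (adjusted p = 0.66) with its pseudogene added.

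Many members share a start region with a gene on the other strand, and these neighbours did not fall to the same extent. For 33 members a coding gene runs in the opposite direction from a start within 1000 bases, among them Mrpl46 and Mrps11, which face each other. In KO cells 13 of the 33 neighbours fell and 10 rose, with a median of -0.04, and in WT cells 14 fell and 7 rose, with a median of -0.10. These counts and medians include Mrpl46 and Mrps11 as neighbours of each other, and both fell in both genotypes. Shares of all genes were 32.8% and 34.4% in KO, and 27.5% and 33.3% in WT cells. Mrps12 faces Sars2, the mitochondrial seryl-tRNA synthetase gene, 172 bases away. Sars2 had a log2 fold change of -0.02 ± 0.08 in KO cells (adjusted p = 0.83) and 0.13 ± 0.08 in WT cells (adjusted p = 0.2), beside falls of 1.26 and 0.74 of Mrps12.

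Other pairs moved together or apart. Mrpl32 and its neighbour Psma2, a proteasome subunit gene, both fell, Psma2 by 0.70 ± 0.04 in KO and 0.82 ± 0.04 in WT cells. Mrpl36 faces Ndufs6, a subunit gene of complex I, which fell by 0.60 ± 0.04 in KO and 0.43 ± 0.04 in WT cells. This pair is taken from the annotated gene start of Mrpl36 at chr13:73328513. The Mrpl36 promoter printed above, chr13:73330859-73331058, lies at another start of the gene. Mrpl44 fell by 0.45 ± 0.04 in KO and 0.44 ± 0.04 in WT cells, while its neighbour Wdfy1 rose by 0.40 ± 0.05 and 0.54 ± 0.05. Mrps34 fell in KO cells, while Eme2, which encodes a subunit of a DNA endonuclease, rose there by 1.13 ± 0.08. In KO cells the member and its neighbour were called in opposite directions in 10 pairs and in WT cells in 3.

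**Figure D5:**
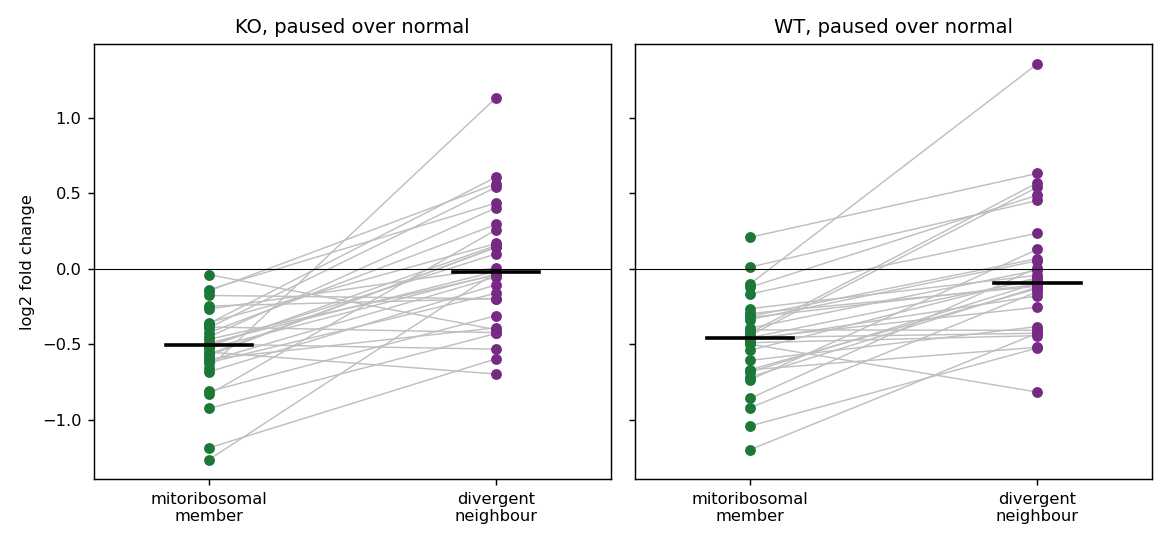
Log2 fold change of paused over normal culture (y axis) for members with a divergent coding neighbour and for that neighbour, joined by lines, in KO (left) and WT cells (right), with the pair of facing members left out. Black bars are medians, and the neighbours' lie nearer to 0 than the members'.

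Mitoribosomal proteins with other symbols were also lower in paused cells. Dap3, Ptcd3, Chchd1, Aurkaip1 and Gadd45gip1, named for other functions, all fell in both genotypes. Ptcd3, a pentatricopeptide repeat protein of the small subunit, fell by 0.59 ± 0.03 in KO and 0.61 ± 0.03 in WT cells. Assembly factors were mixed. Of 24 tested, 13 fell (54.2%) and 4 rose (16.7%) in KO cells, and 9 fell (37.5%) and 3 rose (12.5%) in WT cells. Of 16 translation factors and RNA-binding partners, 11 fell in each genotype (68.8%). Among all genes tested 32.8% fell and 34.4% rose in KO cells, and 27.5% fell and 33.3% rose in WT cells. Tufm, the mitochondrial elongation factor Tu, fell by 0.87 ± 0.06 in KO and 0.70 ± 0.06 in WT cells, and its exchange factor Tsfm by 0.72 ± 0.04 and 0.50 ± 0.04. Slirp, which binds mitochondrial mRNAs together with Lrpprc, fell by 0.87 ± 0.04 and 0.85 ± 0.04.

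Transcripts of the mitochondrial genome were less uniform. Of its 13 mRNAs, 6 fell (46.2%) and 3 rose (23.1%) in KO cells, in poly(A)-selected RNA. In WT cells 5 fell (38.5%) and none rose. Shares of all genes that fell and rose were 32.8% and 34.4% in KO, and 27.5% and 33.3% in WT cells. The level of mt-Atp6 averaged 1295 CPM in KO paused and 2593 in KO normal libraries, and 1273 in WT paused and 2297 in WT normal libraries. It fell by 1.00 ± 0.09 in KO and 0.85 ± 0.09 in WT cells. Tfam, which packages the mitochondrial genome and acts in starting its transcription, fell by 0.68 ± 0.03 in KO and 0.33 ± 0.03 in WT cells. Of 8 nuclear regulators of mitochondrial genes, 7 fell in KO cells and none rose, and 5 fell and 2 rose in WT cells. The coactivator Ppargc1b fell by 1.64 ± 0.10 in KO and 0.36 ± 0.10 in WT cells, a difference of -1.29 ± 0.14 (adjusted p = 9.6e-07). Myc fell by 0.45 ± 0.15 in KO and rose by 0.68 ± 0.14 in WT cells. Gabpa, which binds the ETS motif shown above, fell by 0.12 ± 0.03 in KO and 0.26 ± 0.03 in WT cells.

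Cytosolic ribosomal proteins moved less than the members did. Of 82 such genes, 30 fell (36.6%) and 24 rose (29.3%) in KO cells, with a median of 0.00. In WT cells 37 fell (45.1%) and 11 rose (13.4%), with a median of -0.09. Among all genes tested 32.8% fell and 34.4% rose in KO cells, and 27.5% fell and 33.3% rose in WT cells. The KO shares of this list were thus near those of all genes, while the WT shares leaned toward falls. Nuclear-encoded respiratory chain subunits were nearer to the members. Of 85 tested, 66 fell in KO cells (77.6%), with a median of -0.38, and 69 fell in WT cells (81.2%), with a median of -0.40. The difference between these lists was not tested.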

How the data were processed

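Poly(A)-selected RNA of 16 mouse ESC libraries was sequenced, in 4 groups of 4. Per the submitters' processing notes the authors ran kallisto on GRCm38, and its version is not given in the sources used here. Per the file headers, the deposited tables hold estimated counts, TPM and effective lengths per transcript. Labels give 1 µg of RNA as input. Transcripts were matched to GENCODE M21, which lists 116728 of the 118489 in the files. The rest, 0.656% to 0.712% of a library's counts, were not used. The estimated counts of a gene's transcripts were added and rounded, and deposited TPM were summed per gene for levels between genes. CPM are counts relative to the library total, scaled by TMM factors of 0.933 to 1.07.

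Genes were filtered with filterByExpr at a minimum count of 10 and tested by robust quasi-likelihood in edgeR 4.0.16 (R 4.3.3), fitting all 16 libraries with a mean for each group. The biological coefficient of variation was 0.0852. P-values are two-sided and adjusted by Benjamini-Hochberg over 18944 genes in each of 5 contrasts. These are paused against normal culture in KO and in WT cells, the difference of both responses, and KO against WT in each culture. "Rose", "fell", "higher" and "lower" of a count of genes refer to an adjusted p of 0.05. The SE of a log2 fold change was taken from the F statistic, as its size over the root of F. The code was tested on simulated data. Depth is high, and every member passed the filter. Intervals reflect only the spread between libraries.

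Copies were searched with blastn 2.17.0 at 95% identity, over at least 300 aligned bases for pseudogenes and 150 for adjacent genes. Members named in detail were those with the 10 largest changes in either direction per contrast and a list of stalk, protuberance, tunnel exit and other structural proteins. Genes of a local region and the facing neighbours were taken by position. Members and lists were chosen with earlier results of these data known. Alternatives were DESeq2 1.42.0, relative log expression scaling, no count filter, only the groups of a contrast, a replicate block, a term for replicates 1 and 2 against 3 and 4, length-scaled TPM counts, added pseudogenes, and each library left out. Chosen after seeing the data were replicates 1 and 2 alone, replicates 3 and 4 alone, and members off chromosomes 1 and 14.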

Additional observations from a re-analysis of the deposited data

Results flagged for a closer look

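In 4 of 136 sets of 4 libraries, 128 of a named member and 8 of summed TPM of a subunit, 1 library lay far from the others, by the gap to the nearest other library as a share of the range of the 4. Chance gives about 1 in 20 such sets. The values were 0.833 for Mrpl36 in KO normal culture, where replicate 2 was low at 32.2 CPM, 0.894 for Mrpl18 in WT paused culture, where replicate 1 was high at 66.1, 0.84 for Mrps25 in KO paused culture, where replicate 1 was high at 19.8, and 0.831 for Mrps18c in KO normal culture, where replicate 1 was high at 32.8.

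For 21 of the 32 named members the response to pausing differed between KO and WT cells in the test of the difference. Members were named partly for the size of this difference, so the count is a description. Over all 78 members 36 passed (46.2%), against 41.9% of all genes. The log2 difference, KO minus WT, was negative for Mrpl34 (-0.559), Mrps6 (-0.556), Mrps12 (-0.528), Mrpl43 (-0.503), Mrps34 (-0.49), Mrps25 (-0.454), Mrpl28 (-0.383), Mrpl2 (-0.355), Mrps27 (-0.323), Mrpl41 (-0.29), Mrpl12 (-0.248), Mrpl10 (-0.201) and Mrpl11 (-0.182). It was positive for Mrpl57 (0.283), Mrpl24 (0.228), Mrps18b (0.226), Mrpl52 (0.225), Mrpl45 (0.204), Mrps2 (0.2), Mrpl58 (0.174) and Mrps30 (0.138). Leaving out 1 library at a time lost this call with 8 of the 16 libraries for Mrps30 (adjusted p up to 0.1), 6 of the 16 libraries for Mrpl11 (adjusted p up to 0.12), 3 of the 16 libraries for Mrpl41 (adjusted p up to 0.065), 2 of the 16 libraries for Mrpl58 (adjusted p up to 0.058) and 1 for Mrpl52 (0.054).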

How the results depend on the processing

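Over all alternatives run, 70 to 73 members were lower in paused KO and 68 to 75 in paused WT cells, with medians of -0.56 to -0.49 and -0.54 to -0.46. The count of members higher in paused cells was small and moved. In KO cells, against 2, it was 1 with no count filter, 1 with only the groups of the contrast and 1 with replicates 1 and 2 alone, and it ranged from 1 to 2 when 1 library was left out. In WT cells, against 2, it was 1 with relative log expression scaling, 1 with DESeq2, 0 with only the groups of the contrast and 0 with replicates 3 and 4 alone, and it ranged from 0 to 2 when 1 library was left out. Members higher in KO than WT off chromosomes 1 and 14 numbered 9 in normal and 5 in paused culture, out of 16 and 12 over all members, with no share of all genes computed there. Mrpl43, not called in WT cells, changed sign to -0.018 with relative log expression scaling, -0.018 with DESeq2, -0.034 with only the groups of the contrast, -0.073 with replicates 3 and 4 alone, and -0.022 to 0.043 when 1 library was left out. Mrpl23 became 0.438 in KO and 0.199 in WT cells with its pseudogene added, which adds that gene's counts, -0.417 in KO cells with length-scaled TPM counts, a call of lower (adjusted p = 0.0079), and 0.008 in KO cells with replicates 3 and 4 alone and -0.084 to 0.061 when 1 KO library was left out. Mrpl41 became 0.028 in WT cells with replicates 1 and 2 alone, and was called lower with replicates 3 and 4 alone (-0.244, adjusted p = 0.0063) and without WT paused replicate 1 (-0.168, 0.03). Its difference between genotypes was -0.15 (0.25) with replicates 3 and 4 alone. The cause of the other changes was not tested.

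Replicate numbers were not taken to pair the libraries. Deviations of same-numbered libraries correlated at over 0.1 in 13 of 24 pairs, and in no pair of groups for all 4 numbers. They ran from -0.226 to 0.417, were above 0 in all 6 pairs of replicate 2 (0.05 to 0.417), and 19 of 48 times a library correlated best with its own number in another group. With the replicate block, 74 of 74 calls of pausing were kept in KO, 75 of 75 in WT, 36 of 36 for the difference, 57 of 58 for KO against WT in normal and 56 of 56 in paused culture. Mrps34 in WT cells, -0.164 with the block, became a call (adjusted p = 0.034).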
